A study of Mus musculus with 24 samples.

Results

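Sphingosine-1-phosphate (S1P) was given to the same kind of cell layer at the same dose from opposite sides, and RNA was compared after 24 h. The comparison used 8 of the 24 libraries of the series, which are the 4 labelled S1P basal and the 4 labelled S1P apical, chosen by treatment label alone. The cells were mouse brain microvascular endothelial cells (MBMECs), primary cells that line the small vessels of cortex and midbrain, from wild-type C57B/6J mice. They had been kept in puromycin for 48 h, a drug used to deplete cells other than endothelium, and were grown on transwell inserts, porous supports with one compartment at the apical face, which in a vessel meets the blood, and another at the basal face. Treatment began 48 h after seeding, with 50 nM S1P in the basal or in the apical compartment.

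Beside these groups stood 4 libraries each with 500 nM of CYM50260, an agonist of the receptor S1P4, in the basal or the apical compartment, and 4 with vehicle. The side that received vehicle is not stated in the sources used here. All 20 of these libraries are wild type, and the 4 libraries of the remaining group, vehicle-treated S1P4 knockout cells, were not used here. Each library pooled 3 inserts, and each replicate came from 12 mice. The series' design text names basal S1P as opening the endothelial barrier, and apical S1P and both agonist treatments as tightening it.

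S1P is a lipid mediator made from sphingosine inside cells and carried in blood by albumin and lipoproteins. It acts on G protein-coupled receptors. S1P1 couples to Gi and Rac and is known for holding endothelial junctions together, whereas S1P2 couples to G12/13 and is known for loosening them. In brain endothelium the apical face meets plasma S1P and the basal face meets the basement membrane, pericytes and astrocyte endfeet.

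Only 3 of 12249 genes differed between basal and apical S1P past the threshold, and all 3 fell with basal S1P (0.0245% of genes tested; limma, adjusted p under 0.05 over all genes). They were Atoh8 (ENSMUSG00000037621), which encodes a transcription factor of the basic helix-loop-helix family and is described in endothelial cells as a target of BMP signalling through ALK1 and SMAD proteins, Ackr4 (ENSMUSG00000079355), an atypical chemokine receptor that removes CCL19 and CCL21, and Cpm (ENSMUSG00000020183), a membrane-anchored carboxypeptidase that trims basic residues from peptides such as bradykinin. None was higher past the threshold. The promoters of the 3 genes are shown because they are the genes that moved together. Each sequence is 250 bases before to 50 bases after the RefSeq start on GRCm38.p6, read 5′ to 3′ on the strand of the gene. Atoh8 is at chr6:72235528-72235827 (minus strand), Ackr4 at chr9:104126594-104126893 (minus strand) and Cpm at chr10:117629250-117629549 (plus strand). Capitals mark CAGAC, the short box bound by SMAD proteins, or its reverse complement GTCTG.
Atoh8: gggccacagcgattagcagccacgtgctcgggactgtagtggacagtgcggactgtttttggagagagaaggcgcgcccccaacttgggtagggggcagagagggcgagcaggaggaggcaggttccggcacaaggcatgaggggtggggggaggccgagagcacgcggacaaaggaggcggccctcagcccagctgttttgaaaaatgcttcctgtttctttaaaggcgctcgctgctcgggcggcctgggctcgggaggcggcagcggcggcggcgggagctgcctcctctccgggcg
Ackr4: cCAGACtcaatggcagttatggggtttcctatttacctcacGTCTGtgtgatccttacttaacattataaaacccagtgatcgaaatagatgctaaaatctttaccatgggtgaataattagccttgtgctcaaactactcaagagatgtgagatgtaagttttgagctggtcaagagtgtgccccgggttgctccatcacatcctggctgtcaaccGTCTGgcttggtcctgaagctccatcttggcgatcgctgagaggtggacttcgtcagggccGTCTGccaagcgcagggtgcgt
Cpm: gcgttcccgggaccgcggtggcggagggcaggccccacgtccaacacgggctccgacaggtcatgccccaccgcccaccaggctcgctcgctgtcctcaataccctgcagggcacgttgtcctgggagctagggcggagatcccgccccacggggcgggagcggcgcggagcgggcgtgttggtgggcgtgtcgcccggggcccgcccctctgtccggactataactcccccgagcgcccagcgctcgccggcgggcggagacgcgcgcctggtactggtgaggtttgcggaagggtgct

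The box CAGAC, searched on both strands, occurred 4 times in the Ackr4 window, with its first base at -249, -209, -33 and 28 relative to the start, and 0 times in those of Atoh8 and Cpm. Of 27025 promoters of the same length, 49.7% held it at least once. GGCGCC, a GC-rich SMAD element, occurred 0 times in the 3 windows and in 12.0% of all promoters. The E-box CANNTG, bound by basic helix-loop-helix factors, occurred 2 times in the Atoh8 window, 0 times in those of Ackr4 and Cpm, and in 72.1% of all promoters. These are matches of letters in these windows and nothing more. In the mm10 annotation of the deposited table, Atoh8 spans chr6:72206177-72235577, Ackr4 chr9:104084157-104126933 and Cpm chr10:117629500-117687352, and all 3 are protein-coding. The Ackr4 window lies wholly inside its span there, downstream of the gene start in that annotation, unlike the windows of Atoh8 and Cpm.

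The libraries did not line up by replicate number. Xist, the RNA that coats the silenced X chromosome in female cells, had 0, 552, 1432 and 225 normalized counts in replicates 1 to 4 of basal S1P, against 0, 2555, 525 and 1417 in those of apical S1P. Ddx3y, a gene of the Y chromosome, had 755, 542, 320 and 812 in basal and 754, 432, 560 and 356 in apical libraries, so that libraries numbered 2 to 4 differed between the sides in both sex-linked RNAs. Over 12249 genes, the deviations of a library from its group mean were closest to those of its own number in 16 of 20 wild-type libraries but in 4 of 8 S1P libraries. Across the sides, basal 1 and apical 1 correlated at 0.73, basal 2 and apical 3 at 0.66, and basal 3 and apical 4 at 0.63, while basal 4 and apical 2 stood at 0.03. Apical 2 also correlated with basal 1, at 0.60. Basal 4 had no close counterpart among the apical libraries, where its highest correlation was 0.20, with apical 4. No source used here ties a library to a pool of mice, so whether the sides drew on the same pools was not tested. A limma p-value here measures only the spread between libraries within the 5 wild-type groups, which may be partly technical.

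**Figure D1:**
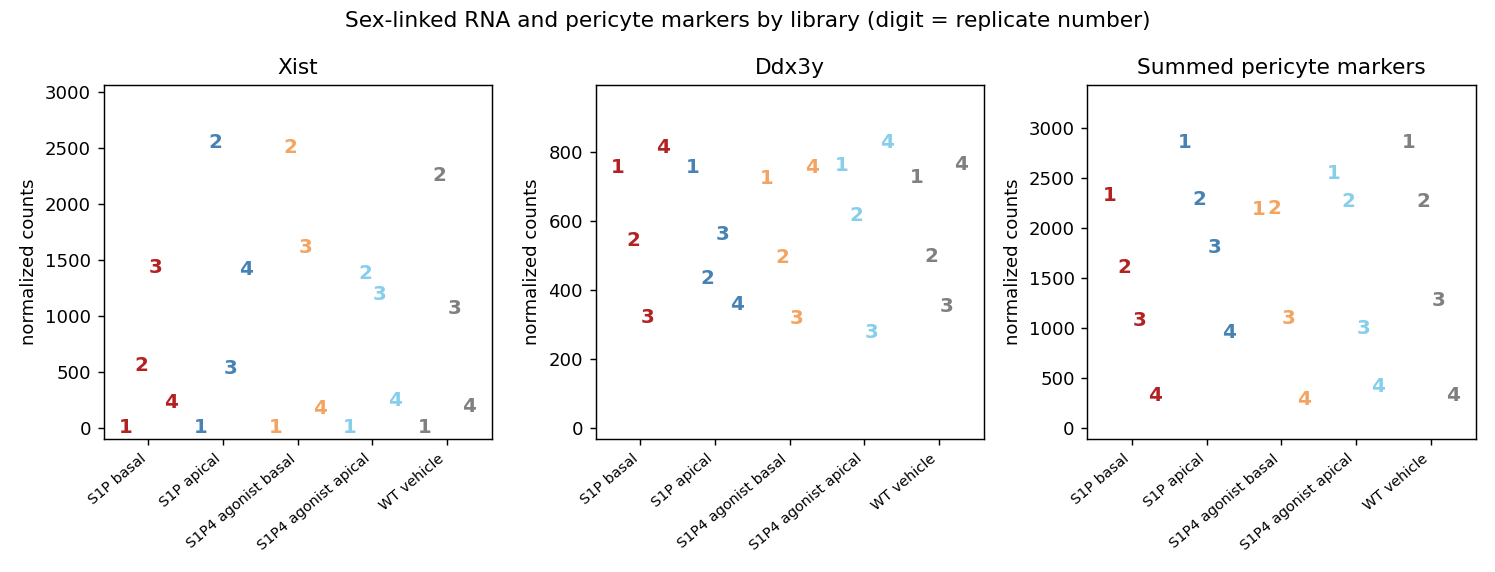
Normalized counts of Xist, Ddx3y and summed pericyte markers (y axes) in each wild-type library, with groups along the x axis and each digit standing for the replicate number. Digits of the same number sit at unlike Xist levels in the S1P groups, for example 552 and 2555 for replicate 2.

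All 20 endothelial markers were in the table, with sums of 38165 to 42387 normalized counts in basal and 39801 to 42031 in apical S1P libraries (log2 difference -0.05, exact permutation p = 0.257, 4 against 4 libraries, two-sided, where the smallest possible p is 0.0286). Pericyte markers summed to 2320, 1601, 1069 and 318 in basal libraries and to 2849, 2281, 1800 and 949 in apical libraries. The groups overlapped, and basal 4 was the lowest library. Their log2 difference was -0.78 (exact permutation p = 0.371). Without basal 4 and apical 2, a choice made after seeing the data, it was -0.10. Normalized totals were 4.49 to 4.70 M in the 8 libraries, and 1177 to 1755 genes stood at 0 in basal against 1071 to 1746 in apical libraries.

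Atoh8 had 140, 128, 137 and 109 normalized counts in the basal S1P libraries and 279, 279, 337 and 255 in the apical S1P libraries. Every basal library lay far below every apical library. The means were 128.5 ± 14.0 and 287.5 ± 34.9 (SD, n = 4 each), a fold of 0.449 on the scale of value plus 1. The log2 difference was -1.15 ± 0.13 (SE; limma adjusted p = 0.00057). Over 24 alternative settings it stayed between -1.21 and -1.07 with an adjusted p of at most 0.0448, so Atoh8 was called in all 24.

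Ackr4 had 52, 61, 38 and 55 normalized counts with basal S1P and 150, 181, 136 and 93 with apical S1P. The highest basal library was well below the lowest apical one, which was apical 4. The means were 51.5 ± 9.75 and 140.0 ± 36.5 (SD, n = 4 each), with a log2 difference of -1.41 ± 0.21 (SE; limma adjusted p = 0.0106). This receptor binds its chemokines without G protein signalling and takes them into the cell for breakdown.

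Cpm had 356, 381, 363 and 434 normalized counts with basal S1P and 480, 536, 587 and 535 with apical S1P. Its groups were separate too, but closer than those of the other two genes. The means were 383.5 ± 35.3 and 534.5 ± 43.7 (SD, n = 4 each), with a log2 difference of -0.48 ± 0.07 (SE; limma adjusted p = 0.0106). The calls of Ackr4 and Cpm depended on single libraries. Without apical 2, apical 3, basal 1 or basal 3 the count of calls was 1, which was Atoh8, and without apical 1 Ackr4 lost its call. A fit on the 8 libraries alone also called 1 gene, with an adjusted p of 0.596 for Ackr4 and 1 for Cpm. Leaving out apical 3 and basal 2 together gave 1 call, and leaving out apical 4 with them gave 2, which were Atoh8 and Ackr4. Leaving out basal 4 and apical 2 together, which was chosen after seeing the data, gave 2, which were Atoh8 and Cpm. In none of these settings did the log2 difference change sign: Ackr4 stayed between -1.77 and -1.27 and Cpm between -0.54 and -0.41.

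Ackr4 lies inside Acad11, an acyl-CoA dehydrogenase gene on the opposite strand (chr9:104063377-104127725, plus strand), and shares 479 of its 5380 exonic bases with it. Acad11 was chosen for this overlap after its values were seen. The libraries were made with a stranded kit, but the sources used here do not state the strand setting of the counting, so some reads of one gene may have been counted for the other. Acad11 had 349, 283, 231 and 278 normalized counts in basal libraries and 447, 377, 379 and 236 in apical libraries. Its groups overlapped, with a log2 difference of -0.31 ± 0.20 (SE; limma adjusted p = 0.999).

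The same change of side was then read with the agonist, which shares no library with the S1P groups. Agonist basal libraries held 237, 270, 278 and 220 normalized counts of Atoh8 and agonist apical libraries 320, 262, 249 and 203. Those values overlapped and lay near vehicle, which had 301, 236, 248 and 232. The log2 difference between the agonist sides was -0.03 ± 0.13 (SE). Ackr4 had 139, 135, 91 and 130 in agonist basal, 161, 132, 108 and 126 in agonist apical and 152, 153, 92 and 129 in vehicle libraries. Here too the 3 groups overlapped, and the agonist difference was -0.09 ± 0.21. Cpm had 550, 589, 530 and 557 in agonist basal, 590, 578, 542 and 572 in agonist apical and 554, 562, 545 and 614 in vehicle libraries, with an agonist difference of -0.04 ± 0.07. For each of the 3 genes, all 4 basal S1P libraries were below every library of the other 4 wild-type groups. Low values in these basal libraries helped to choose the genes, so this is not an independent result.

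Whether the difference between sides itself differed between S1P and the agonist was tested as an interaction, with the reservation that the doses were 50 and 500 nM. No gene passed (0 of 12249, 0%; limma), and 183 genes had an unadjusted p under 0.05 (1.49%). Atoh8 had the interaction -1.13 ± 0.18 (SE; limma adjusted p = 0.102), Ackr4 -1.31 ± 0.30 (limma adjusted p = 1) and Cpm -0.44 ± 0.10 (limma adjusted p = 1). A difference of response between S1P and the agonist was thus not shown for any of them. With the agonist, 0 genes were called between sides (0%; limma), 61 had an unadjusted p under 0.05 (0.498%), and 53 had groups that did not overlap (0.433%).

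**Figure D2:**
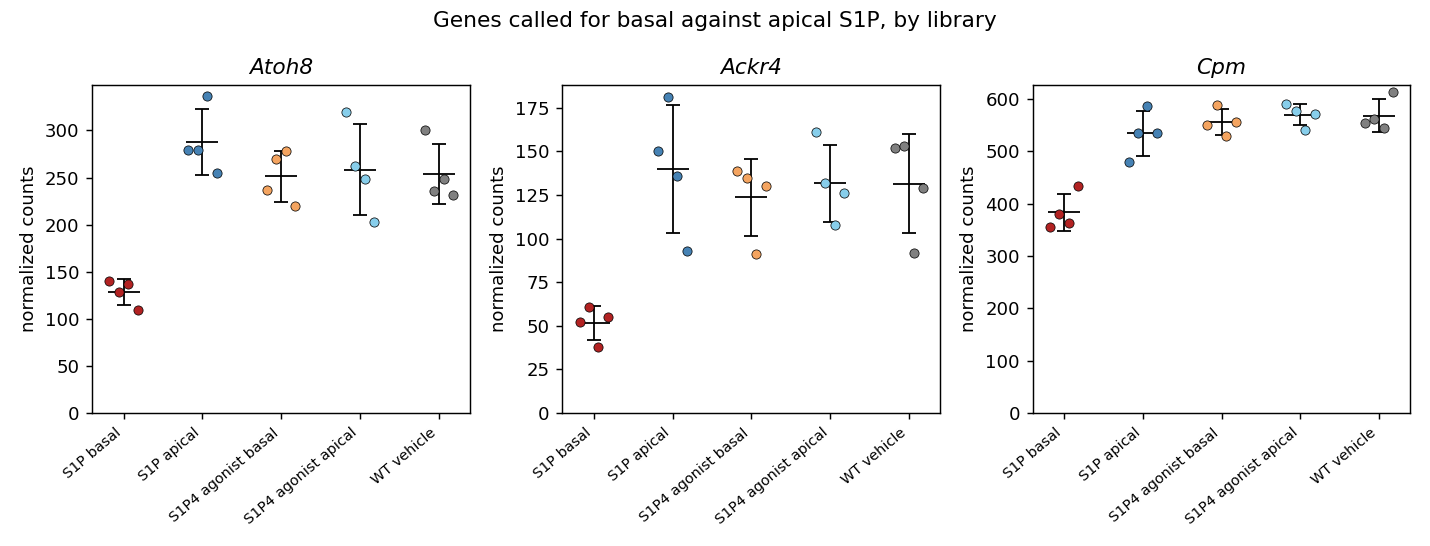
Normalized counts (y axis, from 0) of Atoh8, Ackr4 and Cpm in each library (points) of the 5 wild-type groups (x axis), with the mean and SD over 4 libraries. Basal S1P sits apart from the other 4 groups, at 109 to 140 for Atoh8, 38 to 61 for Ackr4 and 356 to 434 for Cpm.

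Set against vehicle, which both S1P groups share, the differences of the 3 genes lay with basal S1P. The same basal libraries chose these genes, so their fall against vehicle is not an independent result. Atoh8 was at -0.98 ± 0.13 with basal S1P and at 0.18 ± 0.13 with apical S1P on the log2 scale (SE). Ackr4 was at -1.33 ± 0.21 and 0.08 ± 0.21, and Cpm at -0.57 ± 0.07 and -0.09 ± 0.07, in the same order of basal and then apical S1P. Against vehicle 3 genes were called with basal S1P (0.0245%) and 0 with apical S1P (0%; limma), where 122 genes had an unadjusted p under 0.05 (0.996%).

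Below the threshold, 491 genes had an unadjusted p under 0.05 between basal and apical S1P (4.01%), 216 of them lower (1.76%) and 275 higher (2.25%) with basal S1P. In 171 genes the 4 basal libraries did not overlap with the 4 apical ones (1.4%), 79 lower (0.645%) and 92 higher (0.751%). Over all 12249 genes the median log2 difference was 0.00, with 6098 lower (49.8%) and 6151 higher means (50.2%). The genes described next are the 10 with the smallest p in each direction among uncalled genes with separate groups. The separation chose them, so it is no result about them.

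**Figure D3:**
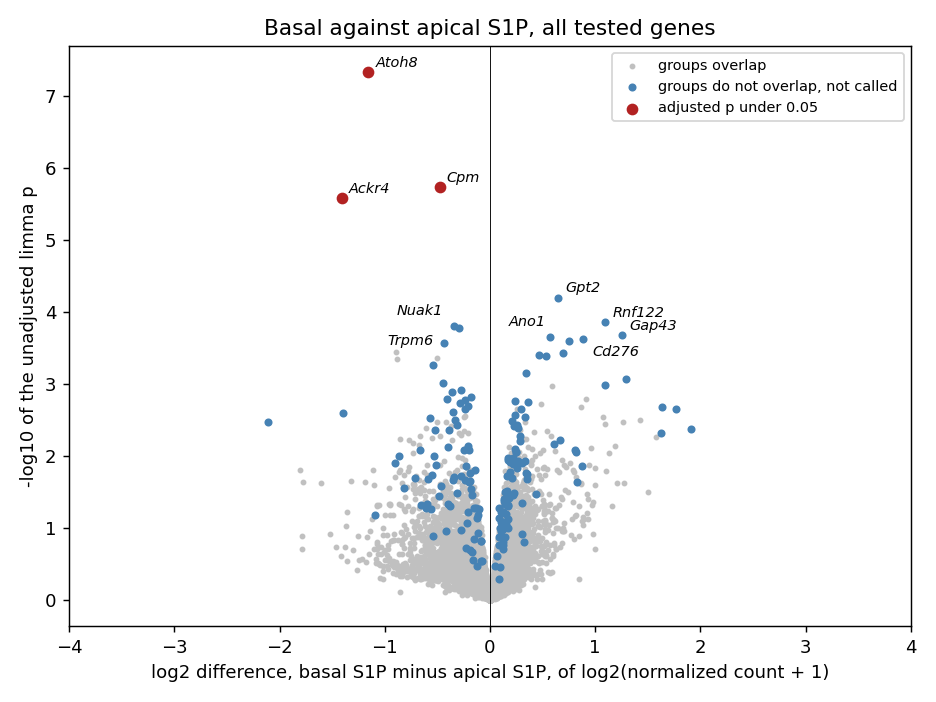
Log2 difference of basal minus apical S1P (x axis) against -log10 of the unadjusted limma p (y axis) for each of 12249 tested genes. Red points are the 3 called genes, all on the lower side, and blue points are uncalled genes whose groups did not overlap, of which Gpt2 is the highest.

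The 10 genes on the lower side come first. Nuak1, a kinase related to AMPK, had 371, 300, 390 and 355 normalized counts in basal and 443, 457, 451 and 438 in apical S1P libraries. The apical libraries were tightly grouped and all above the basal ones, with a log2 difference of -0.34 ± 0.07 (SE; limma adjusted p = 0.272). Trpm6, a magnesium-permeable channel with a kinase domain, had 550, 463, 623 and 609 in basal against 670, 780, 755 and 812 in apical libraries, a difference of -0.43 ± 0.10 (limma adjusted p = 0.272). Sult1a1, which sulfates phenols, had 86, 95, 83 and 95 in basal against 113, 153, 117 and 145 in apical libraries, a difference of -0.54 ± 0.13 (limma adjusted p = 0.346). It passed in 2 of 24 alternative settings, with the pericyte marker level of each library as a covariate and with a block for replicate number.

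Chst15 and Csgalnact2 both build or sulfate chondroitin sulfate chains. Chst15 had 359, 375, 318 and 355 normalized counts with basal S1P and 429, 401, 450 and 445 with apical S1P, a log2 difference of -0.29 ± 0.06 (SE). Csgalnact2 had 386, 391, 381 and 399 with basal S1P and 428, 447, 443 and 447 with apical S1P, a difference of -0.18 ± 0.05. Between the agonist sides it stood at -0.11 ± 0.05. Cbx7, a Polycomb chromatin protein, was at 141.0 ± 10.6 in basal and 192 ± 18.3 in apical libraries (SD, n = 4 each), with a difference of -0.44 ± 0.11. The ubiquitin ligases Rnf144b (-0.28 ± 0.07) and Rffl (-0.36 ± 0.10), the carboxylesterase Ces2g (-0.41 ± 0.11) and the mitotic kinase Nek6 (-0.24 ± 0.07) complete the lower side. None of these 7 passed over all genes in the main fit. Chst15, Cbx7 and Nek6 each passed in 1 of 24 alternative settings.

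On the higher side, Gpt2, a mitochondrial alanine aminotransferase, had 81, 79, 96 and 101 normalized counts with basal S1P and 62, 57, 48 and 59 with apical S1P. Its log2 difference was 0.65 ± 0.13 (SE; limma adjusted p = 0.195), made up of 0.26 for basal S1P and -0.39 for apical S1P against vehicle. Rnf122, a membrane ubiquitin ligase, had 93, 93, 109 and 162 in basal and 68, 54, 34 and 56 in apical libraries, a difference of 1.10 ± 0.23 (limma adjusted p = 0.272). Against vehicle it stood at 0.49 with basal S1P and at -0.60 with apical S1P. Vehicle had 75, 70, 79 and 72 of Gpt2, between the S1P groups, and 70, 59, 91 and 102 of Rnf122, which overlapped with both.

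Gap43, a membrane protein best known from growth cones, had 29, 25, 40 and 29 normalized counts with basal S1P and 7, 17, 11 and 16 with apical S1P. Its log2 difference was the largest among these 20 genes, 1.26 ± 0.27 (SE; limma adjusted p = 0.272), at a low level where the added 1 understates a change. Cd276, an immune checkpoint molecule of the B7 family, had 199, 156, 157 and 213 in basal and 111, 113, 80 and 87 in apical libraries, a difference of 0.89 ± 0.20 (limma adjusted p = 0.272). Ano1, a calcium-activated chloride channel, had 506, 481, 650 and 625 in basal and 354, 351, 373 and 442 in apical libraries, a difference of 0.57 ± 0.12 (limma adjusted p = 0.272). For Ano1 the values against vehicle were 0.52 with basal S1P and -0.04 with apical S1P.

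Creb3l1, a transcription factor held in the endoplasmic reticulum and known for collagen secretion, had 61, 62, 61 and 60 normalized counts in basal against 35, 38, 39 and 37 in apical libraries. Both groups were very even, and the log2 difference was 0.70 ± 0.16 (SE; limma adjusted p = 0.309). Rapgef4, a cAMP-activated exchange factor for Rap, was at 378 ± 46.8 in basal and 274 ± 33.5 in apical libraries (SD, n = 4 each), a difference of 0.47 ± 0.11. Pald1, a phosphatase-like protein of endothelium, was at 783 ± 99.0 in basal and 616 ± 49.7 in apical libraries (SD, n = 4 each), a difference of 0.34 ± 0.08. The annotated long non-coding RNAs K230015D01Rik (0.75 ± 0.17) and 6430562O15Rik (0.53 ± 0.12) complete the higher side. Over these 20 uncalled genes the agonist sides differed by -0.13 (Sult1a1) to 0.26 (Gap43).

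**Figure D4:**
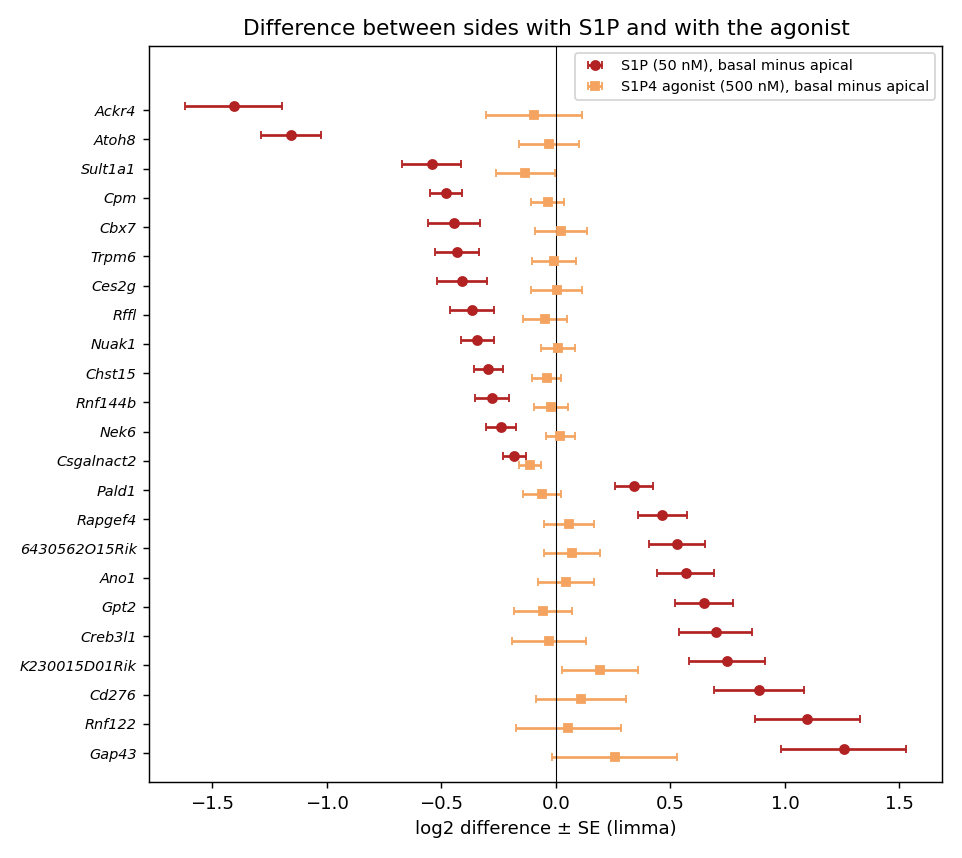
Log2 difference of basal minus apical with its SE (x axis) for the 3 called genes and the 20 uncalled genes with separate groups (y axis), for S1P (red circles) and the S1P4 agonist (orange squares). The agonist values lie near 0, between -0.13 (Sult1a1) and 0.26 (Gap43); the S1P values were used to choose the genes.

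Among the receptors of S1P, 4 of the 5 known genes were in the table and tested, and 0 were called. S1pr1, the Gi-coupled receptor that supports junctions, had 1278, 1627, 1577 and 1673 normalized counts with basal S1P and 1332, 1291, 1473 and 1685 with apical S1P. The groups overlapped throughout, with a log2 difference of 0.09 ± 0.13 (SE) and a 95% interval of -0.18 to 0.37. S1pr2, the G12/13-coupled receptor, had 72, 77, 78 and 71 in basal and 70, 56, 84 and 101 in apical libraries, with an interval of -0.44 to 0.38. S1pr4, the receptor of the agonist, had 114, 160, 161 and 144 in basal and 150, 113, 168 and 190 in apical libraries, with an interval of -0.43 to 0.25.

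The signs of the differences of these 3 receptors turned under some settings. S1pr3 had 51, 26, 21 and 5 normalized counts in basal and 48, 51, 43 and 21 in apical libraries, a difference of -0.93 ± 0.88 whose interval of -2.78 to 0.91 allows a large change either way. Its level moved between libraries with the pericyte markers given above, and the part of those cells in it was not tested.

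Of 21 tested genes that make, move or break down S1P, 12 had lower and 9 higher means in basal libraries (median log2 difference -0.01), and 0 were called. Acer2, a Golgi ceramidase that releases sphingosine, had 698, 573, 389 and 622 normalized counts in basal and 1012, 946, 840 and 645 in apical libraries. Apical 4 lay within the basal range, and the difference was -0.60 ± 0.18 (SE; limma adjusted p = 0.757). Spns2, the exporter of S1P in endothelium, had 755, 1094, 689 and 699 in basal and 884, 900, 1156 and 920 in apical libraries, a difference of -0.27 ± 0.12. Its highest libraries, basal 2 and apical 3, are the pair that resembled each other across numbers. Mfsd2a, a lipid transporter of the blood-brain barrier that limits transcytosis, had 35, 49, 64 and 62 in basal and 28, 23, 35 and 39 in apical libraries, a difference of 0.72 ± 0.27.

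The gene families of Ackr4 and Cpm held no other call. Of 8 tested atypical chemokine receptors and ligands, 5 had lower and 3 higher means, and besides Ackr4 none had an unadjusted p under 0.05. Ackr3, which scavenges CXCL12, had 629, 537, 548 and 699 normalized counts in basal and 628, 550, 422 and 487 in apical libraries, a log2 difference of 0.22 ± 0.11 (SE). Ackr2, a scavenger of inflammatory chemokines, had 21, 28, 5 and 2 in basal and 8, 24, 43 and 10 in apical libraries, too variable to place. Of 6 tested metallocarboxypeptidases all 6 had lower means, with a median of -0.07, Cpm included. Cpd and Cpq, which also trim peptides, stood at -0.06 ± 0.08 and -0.07 ± 0.07.

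Atoh8 belongs to the targets of BMP signalling, in which ligands bind paired receptor kinases, receptor SMADs carry the signal to the nucleus, and SMAD6 and SMAD7 dampen it. Of 10 tested BMP and TGF-beta ligands, 7 had lower and 3 higher means in basal libraries, and 0 were called. Bmp6, a ligand made by endothelium, had 602, 857, 612 and 637 normalized counts with basal S1P and 805, 916, 1188 and 933 with apical S1P. Only basal 2 reached into the apical range, and the log2 difference was -0.51 ± 0.12 (SE; limma adjusted p = 0.309). Bmp2 had 316, 221, 655 and 726 in basal and 232, 192, 147 and 241 in apical libraries, a difference of 1.10 ± 0.33 (limma adjusted p = 0.736). Its highest values came from basal 3 and basal 4. Basal 1, at 316, lay above every apical library, and basal 2, at 221, lay within the apical range.

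Of 15 receptors and antagonists, 11 had lower and 4 higher means, with a median of -0.04. Bmpr2, the type II BMP receptor of endothelium, was at 2135 ± 197 normalized counts in basal and 2400 ± 149 in apical libraries (SD, n = 4 each), a log2 difference of -0.17 ± 0.08 (SE). Of 11 SMADs and their regulators, 7 had lower means, with a median of 0.00. The inhibitory Smad7 had 266, 292, 306 and 155 in basal and 332, 377, 432 and 347 in apical libraries. Its groups were separate, with basal 4 far below the rest, and the difference was -0.58 ± 0.23. Smad6 had 266, 330, 316 and 274 in basal and 330, 351, 517 and 328 in apical libraries, a difference of -0.34 ± 0.13.

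Among 15 tested BMP targets 8 had lower and 7 higher means, with a median log2 difference of -0.13. The list was chosen with earlier results of these data known, so counts over it are no test of it. Beside Atoh8, which was called, 3 more of these genes had an unadjusted p under 0.05 in the lower direction, and 0 in the higher direction. The lower share over all genes was 1.76%. The 3 genes were Smad6, Smad7 and Id2, an inhibitor of basic helix-loop-helix factors. Id2 had 146, 113, 88 and 94 normalized counts in basal and 226, 218, 239 and 141 in apical libraries, where apical 4 alone overlapped, and a difference of -0.89 ± 0.21 (SE; limma adjusted p = 0.309). Against vehicle it was at -0.73 with basal S1P and at 0.17 with apical S1P. Smad6 was at -0.08 and 0.26, and Smad7 at -0.12 and 0.46, in the same order. The same 15 genes had a median of 0.08 between the agonist sides, with 5 lower. Of 13 TGF-beta targets 9 had lower means. Pmepa1, a feedback inhibitor of TGF-beta signalling, stood at 0.42 ± 0.13, and Ltbp2, a matrix protein related to the latent TGF-beta binding proteins, at -0.73 ± 0.31.

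**Figure D5:**
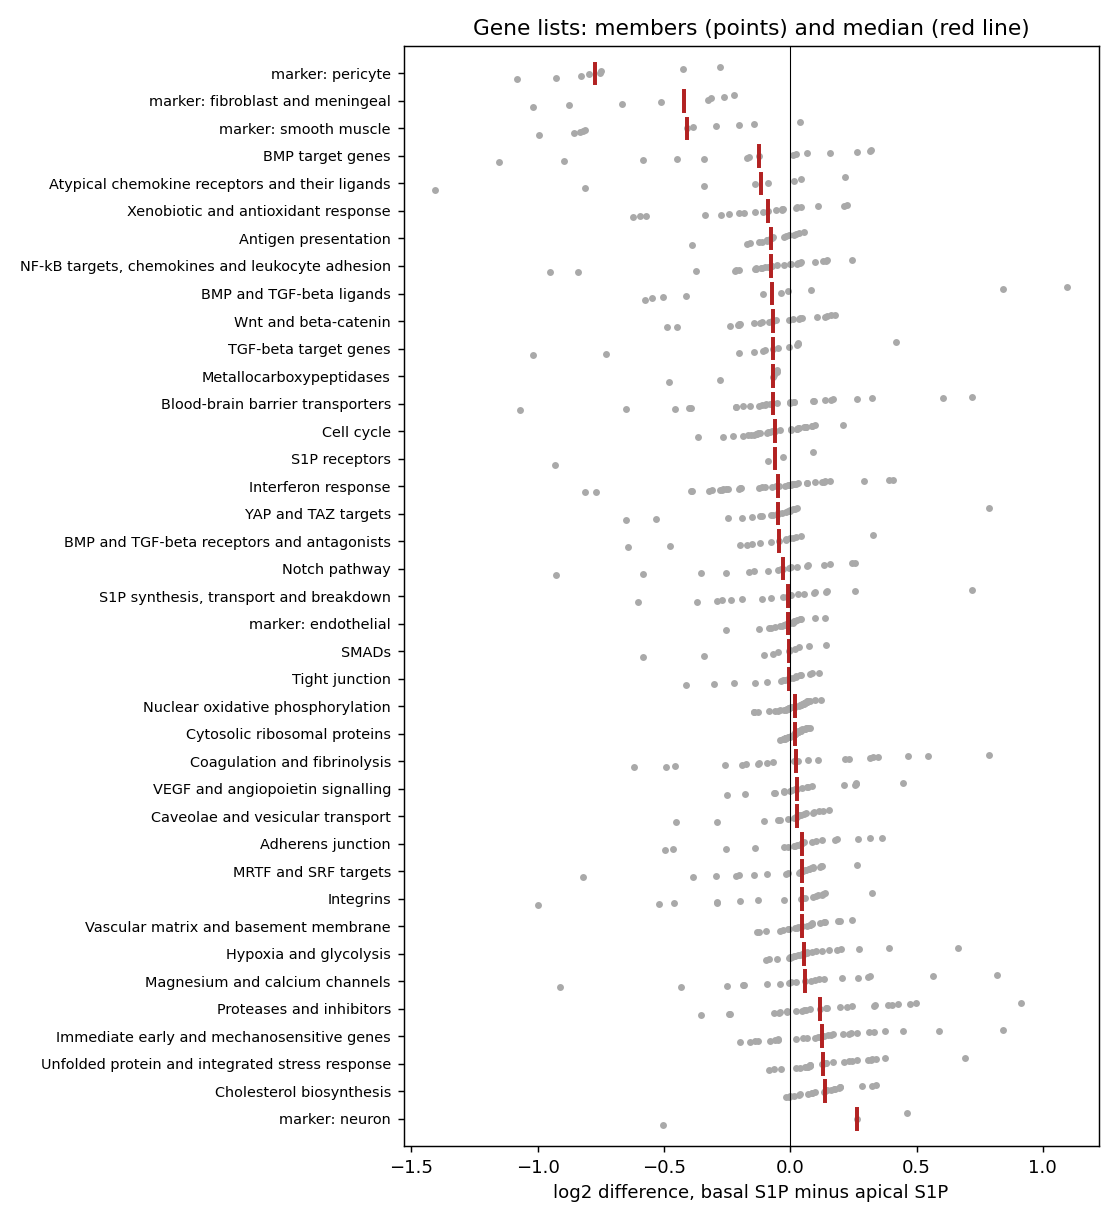
Log2 differences of basal minus apical S1P (x axis) of the members of each gene list (grey points) with the list median (red line), for lists with at least 3 tested genes (y axis, ordered by median). Pericyte, fibroblast and smooth muscle markers lie lowest, at medians of -0.77, -0.42 and -0.41, while most lists lie close to 0.

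Junction genes, whose proteins set the tightness of the barrier, gave no call. Of 18 tight junction genes 9 had lower and 9 higher means, with a median of 0.00. Ocln, the strand protein occludin, had 1021, 1111, 887 and 1011 normalized counts in basal and 1121, 1094, 1136 and 1075 in apical libraries, a log2 difference of -0.14 ± 0.06 (SE). Cgnl1, the junction scaffold paracingulin, stood at 0.08 ± 0.06. Of 22 adherens junction genes 16 had higher means. Jup, which encodes plakoglobin, had 1490, 1572, 1609 and 1860 in basal and 1279, 1238, 1235 and 1307 in apical libraries. Its groups were separate, and the difference was 0.36 ± 0.10 (limma adjusted p = 0.674). Jup passed in 2 of 24 alternative settings, with the pericyte level as a covariate and with a block for replicate number. The adhesion molecules Nectin1 and Nectin2 stood at 0.27 ± 0.12 and 0.12 ± 0.06.

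Downstream of S1P receptors lie the actin-driven factors MRTF and YAP. Of 25 MRTF and SRF targets 16 were on the higher side (median 0.05), and of 20 YAP and TAZ targets 16 on the lower side (median -0.05). Among 29 immediate early and mechanosensitive genes 21 had higher means, with a median of 0.13. Nos3, the endothelial nitric oxide synthase, had 2014, 1896, 2055 and 2266 normalized counts in basal and 1881, 1805, 1694 and 1737 in apical libraries, separate groups with a log2 difference of 0.21 ± 0.06 (SE). The early gene Ier2 stood at 0.23 ± 0.09.

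Proteases and the matrix were next. Of 27 tested proteases and inhibitors 19 had higher means in basal libraries (median 0.12), and 6 had an unadjusted p under 0.05 in the higher direction, against 2.25% of all genes. This list too was chosen with earlier results of these data known, so the count is no test of it. Adamts4, which cleaves aggrecan and versican, had 683, 331, 634 and 831 normalized counts in basal and 427, 342, 180 and 357 in apical libraries. Basal 2 lay within the apical range and apical 3 far below, and the difference was 0.91 ± 0.25 (SE; limma adjusted p = 0.674). Mmp14, a membrane metalloproteinase, had 455, 339, 578 and 594 in basal and 433, 420, 277 and 342 in apical libraries, a difference of 0.40 ± 0.16. Reck, a membrane inhibitor of metalloproteinases that is also part of the Wnt7 receptor complex in brain endothelium, had 625, 564, 494 and 607 in basal and 688, 689, 698 and 623 in apical libraries, a difference of -0.24 ± 0.07. None of these was called.

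Of 23 matrix and basement membrane genes 16 had higher means, with a median of 0.05. In 18 integrins the split was 8 lower and 10 higher, and here Itgb3, the beta chain of the vitronectin receptor, had 1553, 1772, 1992 and 1861 normalized counts in basal and 1279, 1322, 1521 and 1616 in apical libraries, a log2 difference of 0.32 ± 0.10 (SE). Itga8, the alpha chain of a nephronectin receptor, stood at -0.29 ± 0.09. Of 22 coagulation and fibrinolysis genes 12 had higher means and 4 an unadjusted p under 0.05, all higher, against 2.25% of all genes. The plasminogen activators Plat and Plau stood at 0.47 ± 0.18 and 0.35 ± 0.16, and F2rl3, the thrombin receptor PAR4, at 0.54 ± 0.20.

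Among 28 NF-kB targets, chemokines and leukocyte adhesion genes 18 had lower means, with a median of -0.08 and 0 called. Between the agonist sides, where no gene was called either, 18 of the 28 had lower means as well. Icam1, which binds leukocyte integrins, had 690, 676, 828 and 631 normalized counts in basal and 865, 813, 922 and 1062 in apical libraries, where basal 3 overlapped, and a difference of -0.37 ± 0.11 (SE; limma adjusted p = 0.743). Selp, P-selectin, had 130, 53, 35 and 47 in basal and 234, 157, 63 and 71 in apical libraries, a difference of -0.95 ± 0.45. Mcam, an adhesion molecule of endothelial junctions and of pericytes, went the other way at 0.24 ± 0.07, with separate groups of 1829 ± 103 in basal and 1544 ± 58.5 in apical libraries (SD, n = 4 each).

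Of 38 interferon response genes 23 had lower and 15 higher means, with a median of -0.05. Of these, 4 had an unadjusted p under 0.05, all lower, against 1.76% of all genes. The guanylate-binding proteins Gbp3 and Gbp5 defend cells against microbes. Gbp3 had 376, 339, 348 and 454 normalized counts in basal and 505, 534, 465 and 473 in apical libraries, a log2 difference of -0.39 ± 0.12 (SE). Gbp5 had 361, 215, 193 and 274 in basal and 555, 520, 363 and 333 in apical libraries, a difference of -0.77 ± 0.25. The transcription factor Irf1 stood at -0.20 ± 0.07. Against vehicle the interferon list had medians of -0.31 with basal S1P and -0.18 with apical S1P, and between the agonist sides 36 of the 38 genes had lower means (49.7% of all genes), so a lean to lower means was present there as well. Of 18 antigen presentation genes 14 had lower means, none at an unadjusted p under 0.05.

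Of 22 cholesterol biosynthesis genes 19 had higher means, with a median of 0.14 and 0 called. The synthesis enzymes Fdft1 and Dhcr7 stood at 0.20 ± 0.09 and 0.34 ± 0.16. The list's medians against vehicle were 0.05 with basal S1P and -0.06 with apical S1P. Between the agonist sides the count ran the other way, with 20 of the 22 genes lower and a median of -0.08. Of 27 genes that answer unfolded proteins or integrated stress, 24 had higher means, with a median of 0.13, while 15 were lower between the agonist sides. Mthfd2, a mitochondrial folate enzyme, stood at 0.31 ± 0.14, and Slc3a2, the heavy chain of amino acid exchangers, had 670, 708, 732 and 837 normalized counts in basal and 624, 664, 662 and 664 in apical libraries, separate groups with a difference of 0.17 ± 0.08 (SE).

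Of 25 hypoxia and glycolysis genes 19 had higher means and 4 an unadjusted p under 0.05, all higher, against 2.25% of all genes. Car9, a membrane carbonic anhydrase induced by hypoxia, had 28, 29, 35 and 31 normalized counts in basal and 17, 21, 15 and 24 in apical libraries, separate groups with a log2 difference of 0.67 ± 0.21 (SE). The phosphofructokinase Pfkp stood at 0.27 ± 0.09. The 38 nuclear oxidative phosphorylation genes and the 42 cytosolic ribosomal proteins each had a median of 0.02, with 23 and 32 higher means and 0 at an unadjusted p under 0.05. Between the agonist sides, lower means were held by 21 of the 25 hypoxia and glycolysis genes, 35 of the 38 oxidative phosphorylation genes and 36 of the 42 ribosomal protein genes, again with 0 called. Such leans of whole lists thus occurred in either direction without a called gene. Of 31 cell cycle genes 18 had lower means, with a median of -0.06.

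Genes that make brain endothelium a barrier were mixed. Of 24 Wnt and beta-catenin genes 15 had lower means. An unadjusted p under 0.05 was held by 3, all lower and Reck among them, against 1.76% of all genes. Foxf2, a forkhead factor of brain vessels, had 398, 392, 424 and 403 normalized counts in basal and 494, 463, 452 and 454 in apical libraries, narrow separate groups with a log2 difference of -0.20 ± 0.07 (SE; limma adjusted p = 0.945). Of 28 blood-brain barrier transporters 17 had lower and 11 higher means. Slc38a3, a glutamine transporter, had 215, 217, 196 and 364 in basal and 177, 168, 152 and 136 in apical libraries, where basal 4 stood far above, and a difference of 0.61 ± 0.20. The efflux pump Abcc4 stood at -0.21 ± 0.08.

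In 19 VEGF and angiopoietin genes 13 had higher means, and in 19 Notch genes 11 lower. Dll4, a Notch ligand induced by VEGF, stood at 0.26 ± 0.09 and Lfng, which modifies Notch, at -0.35 ± 0.16 (log2 difference and SE). Of 19 caveolar and vesicular transport genes 13 had higher means, with a median of 0.03. Of 21 magnesium and calcium channels and related channels, Trpm6 and Ano1 included, 13 had higher means. Piezo2, a mechanically gated channel, had 133, 48, 50 and 72 normalized counts in basal and 45, 43, 31 and 38 in apical libraries, separate groups in which basal 1 was the highest, and a difference of 0.82 ± 0.28 (SE).

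Of 21 genes of the xenobiotic and antioxidant response 15 had lower means, with a median of -0.09. Ahr, the aryl hydrocarbon receptor, had 338, 216, 194 and 298 normalized counts in basal and 537, 430, 310 and 308 in apical libraries, a log2 difference of -0.59 ± 0.22 (SE; limma adjusted p = 0.999). Basal 1 overlapped with apical 3 and apical 4. Its repressor and target Ahrr had 80, 70, 40 and 44 in basal and 106, 77, 97 and 72 in apical libraries, a difference of -0.62 ± 0.24. Against vehicle Ahr was at -0.80 with basal S1P and at -0.20 with apical S1P.

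Markers of the other cells of the vessel wall stood lower in basal S1P libraries relative to apical ones, without passing a test. The list medians of log2 differences from vehicle were -0.38 with basal S1P and 0.51 with apical S1P for pericyte markers. In the same order they were 0.01 and 0.52 for smooth muscle markers, and -0.24 and 0.40 for fibroblast and meningeal markers. The gap between the sides thus included apical medians above vehicle, and these medians were not tested. In bulk RNA, fewer cells of a type and less RNA per cell cannot be told apart. Each of the 8 pericyte markers tested was lower on average in basal libraries (median log2 difference -0.77), and 0 had an unadjusted p under 0.05. Rgs5, a defining pericyte gene, had 253, 173, 51 and 31 normalized counts in basal and 402, 376, 235 and 40 in apical libraries. Pdgfrb, the receptor that holds pericytes on vessels, had 488, 319, 256 and 52 in basal and 538, 438, 343 and 238 in apical libraries. In both groups the level varied widely between libraries, and basal 4 and apical 4 were the lowest.

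Smooth muscle markers were lower in 10 of 11 tested genes, with a median of -0.41, and their sums ranged from 2682 to 4402 in basal and from 3376 to 4766 in apical libraries (log2 difference -0.24, exact permutation p = 0.2). Fibroblast and meningeal markers were lower in 8 of 8, with a median of -0.42, and summed to 457 to 1237 in basal and 461 to 1428 in apical libraries (log2 difference -0.47, exact permutation p = 0.286), with 1 of the 10 markers in the table at 0 in all 8 libraries. Astrocyte markers summed to 687 to 897 in basal and 553 to 746 in apical libraries (log2 difference 0.38, exact permutation p = 0.0571). Gja1, the gap junction protein connexin 43, which endothelium also makes, accounted for most of that sum, with 690, 610, 767 and 759 in basal and 557, 464, 471 and 656 in apical libraries.

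Microglia and macrophage markers summed to 40 to 111 in basal and 44 to 155 in apical libraries (exact permutation p = 0.257), neuron markers to 199 to 505 and 176 to 359 (exact permutation p = 0.371), and oligodendrocyte markers to 350 to 423 and 326 to 390 (exact permutation p = 0.371), in each case basal before apical. Their part in the differences above was not tested. With the summed pericyte level of each library as a covariate, the 3 called genes kept their calls and Sult1a1 and Jup joined them, 5 in all.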

How the data were processed

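RNA was measured in 20 wild-type libraries of 5 groups. Per the submitters' processing notes the tools were DESeq2 1.26.0, featureCounts 1.6.5 (Subread), STAR 2.7.3a, Trimmomatic 0.38 and FastQC, on mm10, with no role or order given. The values the authors deposited are a signal per gene, whole numbers that look like scaled and rounded counts per gene, called normalized counts here, with no source at hand for how they were scaled. Reads could not be recovered, so no count model and no counting interval was used. The largest value was 8346, and whether abundant genes are compressed was not tested.

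Of 18091 genes, the 12249 with a mean of at least 10 over the 20 libraries were fitted as log2(value + 1) with limma 3.58.1 (R 4.3.3), with group means over all 20 libraries, a mean-dependent prior variance and Benjamini-Hochberg adjustment over genes, called at 0.05. Fold changes on this scale understate low genes. Summed markers were compared with two-sided exact permutation tests. The fits were tested on simulated data.

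Named genes are those called, the next 10 per direction with separate groups, the S1P receptors and up to 4 members of each of 34 gene lists with the smallest p; some items are not reported here. Members and lists were chosen with earlier results of these data known, so counts over a list are no test of it. Promoters come from RefSeq (GRCm38.p6); all 3 called genes matched. Alternatives changed the scaling, the pseudocount, the filter, the covariates, the prior variance, the libraries included and a replicate block. Replicate numbers are not stated to mark a shared pool, so the values in the report come from fits without the block.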

Additional observations from a re-analysis of the deposited data

Results flagged for a closer look

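Within the groups of 4 S1P libraries, 8 of 176 groups of values examined held 1 library far from the other 3, where chance alone flags about 1 in 20 groups. The count is no larger than that rate gives, so the flags are no result about the genes that follow. Spns2, the S1P exporter, had its highest values of 1094 in basal 2 and 1156 in apical 3, against 689 to 755 and 884 to 920 in the other libraries of each group. Bmp6 was highest in basal 2, at 857, and the inhibitory Smad6 was highest in apical 3, at 517. Pmepa1 was lowest in basal 1, at 632. Reck was lowest in apical 4, at 623, and Slc3a2 in apical 1, at 624. The glutamine transporter Slc38a3 was highest in basal 4, at 364.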

How the results depend on the processing

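Over 24 alternatives Atoh8 kept its call in every one, Ackr4 in 16 and Cpm in 17. The count of 3 genes for basal against apical S1P became 83 with a replicate block (30 lower, 53 higher, the 3 genes among them), 1 on the 8 libraries alone, 1 without apical 3 and basal 2, and 5 with pericyte markers as a covariate. It ranged from 1 to 3 when single libraries were left out. Of the uncalled genes named for separate groups, the block called Nuak1, Chst15, Sult1a1, Cbx7 and Nek6 on the lower side. On the higher side it called Gpt2, Rnf122, Gap43, Ano1, Cd276, K230015D01Rik, 6430562O15Rik and Pald1. Of genes named from the lists it called Acer2, Bmp6, Id2, Pmepa1, Jup, Icam1, Selp, Gbp3, Gbp5, Itgb3, Mthfd2, Ahr and Gja1. Apart from replicate 1, the numbers do not pair the S1P libraries closely: same-numbered deviations correlated at 0.73, -0.34, 0.03 and 0.20. For the interaction the count of 0 became 2 with the block, 2 with array weights and 1 with the pericyte covariate, and ranged from 0 to 1 over single libraries (1 without agonist apical replicate 1). For basal S1P against vehicle the count of 3 became 47 with the block, 13 with array weights, 0 on those 8 libraries alone and 6 with the pericyte covariate, and ranged from 2 to 4. The agonist sides and apical S1P against vehicle stayed at 0 to 0 over single libraries.

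The sign of S1pr4 turned to 0.0596 with array weights and 0.0861 without apical 3, apical 4 and basal 2, and over single libraries its difference ranged from -0.23 to 0.0212, above 0 without apical 4 or basal 1. S1pr1 turned to -0.0039 without apical 2 and basal 4 and to -0.0123 with the pericyte covariate. S1pr2 turned to 0.0513 with quantile normalization, 0.14 with array weights, 0.0028 without apical 3 and basal 2, and 0.23 without apical 4 as well, and ranged from -0.17 to 0.11 over single libraries, above 0 without apical 3 or apical 4. The marker sums of astrocytes and oligodendrocytes turned to -0.34 and -0.45 when log2 values were summed. The causes were not tested. Leaving out single libraries, the log2 differences of summed markers ranged from -1.16 to -0.20 for pericytes, -0.34 to -0.10 for smooth muscle, -0.85 to -0.24 for fibroblasts, 0.32 to 0.47 for astrocytes, 0.02 to 0.12 for oligodendrocytes, -0.88 to -0.29 for microglia, 0.07 to 0.52 for neurons and -0.08 to -0.03 for endothelium. Precision is limited by 4 libraries a side, and depth in reads is unknown.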
